A study of Mus musculus with 18 samples.

Results

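The genes described here encode the accessory receptors, adaptor proteins and IRAK kinases that carry the lipopolysaccharide (LPS) signal from Toll-like receptor 4 (TLR4) into the macrophage. The 10 genes are Cd14, Ly96, Myd88, Tirap, Ticam1, Ticam2, Irak4, Irak1, Irak2 and Irak3. Every peak of the study's union set that overlapped one of these genes, extended by 25 kb on both sides (mm9 coordinates, GENCODE M1 gene models), was taken as a member. This gave 244 of 194284 peaks, and no peak fell to more than 1 of the genes. There were 24 at Cd14, 17 at Ly96, 17 at Myd88, 23 at Tirap, 22 at Ticam1, 20 at Ticam2, 28 at Irak4, 15 at Irak1, 30 at Irak2 and 48 at Irak3. The rule itself used no measured value, but the genes were chosen with earlier results of these data known. Of the 244 peaks, 66 were in the study's promoter class and 178 in its distal class. The median width was 1227 bases, against 957 bases over all peaks. Peaks are numbered along the strand of their gene, so that Irak3_p1 lies farthest upstream of Irak3.

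ATAC-seq, which tags accessible DNA with sequencing adapters by means of a transposase, was run on bone marrow-derived macrophages (BMDMs) of male Il10-/- C57BL/6J mice aged 12 weeks. All 6 groups carry the Il10 deletion, and there is no wild-type group. The unstimulated group received none of the agents, the (+)-JQ1 group received 500 nM (+)-JQ1, and the IL-10 group received 10 ng/mL IL-10. The LPS group received 50 ng/mL LPS for 4 h, and the LPS + (+)-JQ1 and LPS + IL-10 groups received the same LPS after 12 h of the inhibitor or the cytokine. (+)-JQ1 is a small molecule that displaces BET bromodomain proteins from acetylated histones. Each group held 3 libraries, and libraries of the same number came from the same mouse. The cells were grown in L929-conditioned medium and are bulk cultures.

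LPS is handed by the surface protein CD14 to MD-2, the product of Ly96, which sits on the ectodomain of TLR4. The activated receptor recruits MyD88 through the bridging adaptor TIRAP, and, after uptake, TRIF (Ticam1) through the bridging adaptor TRAM (Ticam2). MyD88 assembles IRAK4 with IRAK1 and IRAK2 into the Myddosome, which activates TRAF6 and NF-kB, while TRIF leads to IRF3 and type I interferon. IRAK3, also called IRAK-M, is the family member known as an inhibitor of this pathway in macrophages, and is associated with endotoxin tolerance.

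The sequences of 3 distal peaks are shown because the results below turn on them. Each run is the central 300 bases of the peak on the + strand of mm9, with any match to a searched motif in capitals. Irak2_p14 (chr6:113607957-113608256) lies in an intron of Irak2, opened with LPS and was lower with IL-10 before LPS. Irak3_p18 (chr10:119622217-119622516) lies in an intron of Irak3 and had the largest difference between LPS + IL-10 and LPS. Irak3_p44 (chr10:119571956-119572255) lies downstream of Irak3 and had the smallest FDR in that comparison; its capitals mark an interferon response element match, here on the other strand.
Irak2_p14: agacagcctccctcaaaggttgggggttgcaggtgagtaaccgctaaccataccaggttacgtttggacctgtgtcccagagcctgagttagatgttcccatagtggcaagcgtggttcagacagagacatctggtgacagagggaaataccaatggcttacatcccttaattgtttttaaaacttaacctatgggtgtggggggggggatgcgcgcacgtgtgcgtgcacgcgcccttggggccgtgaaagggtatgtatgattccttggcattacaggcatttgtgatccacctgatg
Irak3_p18: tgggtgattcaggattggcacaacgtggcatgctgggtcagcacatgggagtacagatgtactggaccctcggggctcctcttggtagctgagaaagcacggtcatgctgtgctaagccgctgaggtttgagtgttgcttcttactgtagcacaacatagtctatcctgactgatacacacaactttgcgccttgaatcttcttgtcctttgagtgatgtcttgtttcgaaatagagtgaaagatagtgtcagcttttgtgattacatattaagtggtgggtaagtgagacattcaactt
Irak3_p44: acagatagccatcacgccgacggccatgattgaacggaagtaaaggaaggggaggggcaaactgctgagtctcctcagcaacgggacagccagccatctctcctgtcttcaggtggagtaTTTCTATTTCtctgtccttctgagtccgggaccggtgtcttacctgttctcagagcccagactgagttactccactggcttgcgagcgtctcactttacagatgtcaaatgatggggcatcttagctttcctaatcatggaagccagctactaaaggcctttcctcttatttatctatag

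Total counts in peaks were between 12020526 and 25908198 per library, and the counts of the member peaks ran from 0 to 2386 with a median of 55.5. Values are given as normalized CPM, a peak's count relative to its library's total, with that total scaled by the TMM factors of edgeR. The TMM factors were 1.04 to 1.24 in the unstimulated libraries and 0.90 to 1.05 in the other groups. Differences from the unstimulated group therefore move with the scaling. In the paragraphs on each gene, calls that another scaling did not make are named as such beside the value. Markers of cell types were summed over their start site peaks. All 8 macrophage markers (among them Csf1r, Adgre1, Itgam and Spi1) had a peak at a start site. Their summed signal was 161 to 229 CPM in the unstimulated libraries and 235 to 285 CPM in the others. It was 235 to 249.7 CPM with LPS, below the 262 to 285 CPM with LPS + (+)-JQ1 and the 256 to 281 CPM with LPS + IL-10. Of 17 markers of other cell types, 12 had such a peak, with a sum of 113 to 150.2 CPM, and Cd3e, Cd3g, Cd8a and Ly6g were among those with none. Some of these sums moved with the groups. The neutrophil sum (S100a8 and Mpo; S100a8 is also expressed by macrophages) was 9.30 to 16.3 CPM unstimulated, 17.8 to 19.1 CPM with (+)-JQ1, 17.3 to 19.3 CPM with IL-10, 10.1 to 11.8 CPM with LPS, 9.82 to 14.7 CPM with LPS + (+)-JQ1 and 18.1 to 20.8 CPM with LPS + IL-10. S100a8 was at 7.19 to 8.90 CPM with LPS and 14.7 to 17.7 CPM with LPS + IL-10, whereas Mpo overlapped between these groups, at 2.69 to 3.12 and 3.05 to 3.86 CPM. The fibroblast sum was 55.9 to 58.7 CPM with LPS, above its 46.5 to 50.7 CPM unstimulated. It was 45.3 to 51.4 CPM with LPS + (+)-JQ1 and 52.6 to 55.7 CPM with LPS + IL-10, both also below LPS. Its genes Col1a1 and Pdgfra each overlapped between LPS and LPS + IL-10. The B cell sum was 13.1 to 15.3 CPM with LPS and 10.5 to 12.8 CPM with LPS + IL-10. The dendritic cell sum was 27.7 to 41.2 CPM unstimulated and 42.3 to 47.0 CPM with LPS. Without LPS it was 42.3 to 54.6 CPM with (+)-JQ1 and 44.3 to 45.1 CPM with IL-10, also above unstimulated. With LPS + (+)-JQ1 (34.6 to 47.8 CPM) and LPS + IL-10 (36.1 to 43.2 CPM) it overlapped unstimulated. Of its genes, Flt3 overlapped between unstimulated and LPS, and Zbtb46 did not. The part of these markers in the results below was not tested. In bulk cells a share of cells that changes and a change in each cell cannot be told apart.

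A peak was called where the FDR, the Benjamini-Hochberg adjusted p of edgeR's quasi-likelihood test over all 194230 tested peaks, was under 0.05 and the absolute log2 fold-change above 0.5. All 244 member peaks passed the filter on low counts, and 132 of them were called in none of the 5 comparisons between groups. The matching share over all tested peaks was not counted. With LPS, 58 member peaks were higher and 4 lower, against 11.7% and 10.2% of all tested peaks. The members' share higher was 23.8%, and their median log2 fold-change was 0.30, against -0.03 over all peaks. Irak2 with 20 and Irak3 with 13 held most of the 58. Without mouse 2 the 58 became 38, and without mouse 3 the 4 became 1. With (+)-JQ1 alone, 44 were higher and 2 lower, against 7.85% and 3.15% of all peaks, and without mouse 2 the 44 became 17. With IL-10 alone, 17 were higher and 1 lower, against 5.16% and 3.50%. The count of 17 was 5 without mouse 2, 6 without mouse 1, 36 without mouse 3, 6 without unstimulated replicate 1 and 43 without unstimulated replicate 3. Over all peaks, leaving out mouse 2 took the number higher from 22790 to 15606 with LPS and from 15247 to 4341 with (+)-JQ1. With IL-10 alone that number went from 10021 to 1551.

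The question of what each treatment did to the LPS response was addressed by comparing the groups that all received LPS. LPS + (+)-JQ1 differed from LPS at 6 peaks that were higher and 5 that were lower, against 1.74% and 3.49% of all peaks. Without mouse 2 these were 2 and 1, without mouse 3 the 5 became 1, and without LPS + (+)-JQ1 replicate 2 alone it became 1. LPS + IL-10 differed from LPS at 21 peaks that were higher and 12 that were lower, against 4.26% and 4.51%. Of the 21, 18 belonged to Irak3, and of the 12, 7 belonged to Irak2. The 21 became 9 without mouse 1, 12 without mouse 2, 11 without LPS + IL-10 replicate 1 and 13 without LPS replicate 1, and the 12 became 5 without mouse 2. Over all peaks, leaving out mouse 2 took LPS + (+)-JQ1 from 3378 higher and 6770 lower to 968 and 3011. LPS + IL-10 went from 8275 and 8768 to 4412 and 4504. Of the 58 peaks that were higher with LPS, 5 were lower with LPS + (+)-JQ1, 9 were lower with LPS + IL-10, and 1, Ly96_p4, was lower with both. A further 4, all at Irak3, were higher still with LPS + IL-10, and 41 of the 58 were called with neither treatment. The LPS libraries enter both comparisons, so choosing the 58 favours peaks that are lower in the second. The same shares among all peaks higher with LPS were not counted.

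**Figure D1:**
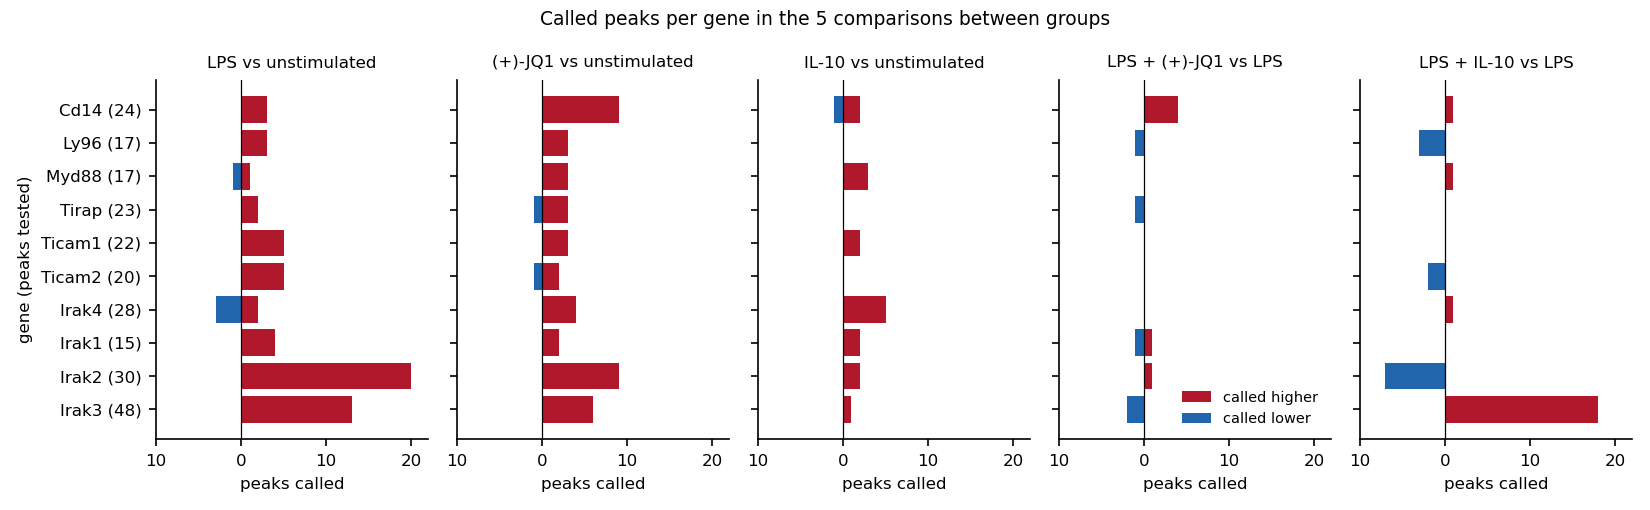
Called peaks of each gene in the 5 comparisons between groups; the x axis counts peaks, with those called lower drawn to the left of 0 and those called higher to the right, and the y axis names the gene with its number of tested peaks. The longest bars are the 20 peaks of Irak2 higher with LPS and the 18 peaks of Irak3 higher with LPS + IL-10 than with LPS.

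Cd14 encodes the glycolipid-anchored protein that delivers LPS to the receptor. Its start site peak, Cd14_p14 (chr18:36885824-36886751), spans the first exon and the promoter. Its values were 11.9, 14.1 and 21.3 CPM unstimulated, 20.8, 17.8 and 18.8 CPM with LPS, and 35.1, 36.5 and 35.5 CPM with (+)-JQ1. The (+)-JQ1 libraries stood above every unstimulated library, whereas the LPS and unstimulated libraries overlapped. The log2 fold-change of Cd14_p14 was 1.17 ± 0.15 (SE) with (+)-JQ1 (edgeR FDR = 1.1e-08) and 0.27 ± 0.15 with LPS (edgeR FDR = 0.17). After (+)-JQ1 and LPS the libraries held 29.5, 37.1 and 27.9 CPM, all above the 3 LPS libraries, and Cd14_p14 was 0.72 ± 0.14 higher than with LPS alone (edgeR FDR = 0.00018, not called without mouse 2). With LPS + IL-10 it was at 24.3, 21.0 and 19.5 CPM, which overlapped the LPS libraries (log2 fold-change 0.17 ± 0.14).

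A further 3 peaks on the 3' side of Cd14 were called in the same comparison, so that 4 of its 24 peaks were higher with LPS + (+)-JQ1 than with LPS, with log2 fold-changes of 0.53 to 0.84. They made up 4 of the 6 member peaks higher there, and the other two were Irak1_p14 and Irak2_p30. The peak that adjoins the 3' end of the gene, Cd14_p15, was at 8.87, 13.2 and 10.9 CPM with LPS, against 18.7, 20 and 20.3 CPM with LPS + (+)-JQ1, and the groups did not overlap. Its log2 fold-change of 0.84 ± 0.14 (edgeR FDR = 1.0e-05) was called under every alternative, including each fit without 1 mouse. Without mouse 2 Cd14_p15 was the single Cd14 peak called, and without mouse 1 there were 2. None of the 4 was called with LPS alone (log2 fold-changes 0.22 to 0.40), and 3 were called with (+)-JQ1 alone, where the call of Cd14_p15 (0.65) was lost under total counts and loess offsets.

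Cd14_p16, 6.5 kb downstream, was higher in each of the 3 comparisons with the unstimulated group. Its values were 5.09, 8.52 and 9.43 CPM unstimulated, 16.1, 13.2 and 15.3 CPM with LPS, 14.7, 15.8 and 16.7 CPM with (+)-JQ1, and 12.1, 13.4 and 13.2 CPM with IL-10. All 9 treated libraries stood above the 3 unstimulated libraries, which are shared by the 3 comparisons. The log2 fold-changes were 0.94 ± 0.15 with LPS, 1.02 ± 0.15 with (+)-JQ1 and 0.74 ± 0.15 with IL-10 (edgeR FDRs 3.4e-07, 3.8e-07 and 0.00048), and the IL-10 call was lost under loess offsets. Cd14_p11, over the start site of Tmco6, was also higher in all 3, by 0.71 ± 0.14, 0.87 ± 0.14 and 0.57 ± 0.14, but passed in none of them under loess offsets, which scale libraries by peak strength. Under total counts its LPS and IL-10 calls were lost too, and the IL-10 call also without mouse 1 or mouse 2. Cd14_p19, 15.5 kb downstream, was higher with LPS + IL-10 than with LPS (0.79 ± 0.25, edgeR FDR = 0.026, lost without any 1 mouse), at 2.59, 2.84 and 3.72 CPM against 1.52, 1.85 and 1.97 CPM. Cd14_p4, upstream, was the single member peak lower with IL-10 alone (log2 fold-change -0.98 ± 0.31, edgeR FDR = 0.026). Its call was lost without any 1 mouse and under loess offsets, and with the replicate block 2 member peaks were lower with IL-10 alone.

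Ly96 encodes MD-2, the protein that binds the lipid A part of LPS. Ly96_p4 lies 17 kb upstream, in the body of the neighbouring gene Tmem70. It was at 2.41, 3.13 and 2.47 CPM unstimulated and 7.30, 5.69 and 7.05 CPM with LPS. It was at 4.30, 3.27 and 3.53 CPM with LPS + (+)-JQ1 and 3.10, 2.84 and 3.49 CPM with LPS + IL-10. The LPS libraries stood above all other libraries. The log2 fold-change of Ly96_p4 was 1.32 ± 0.21 with LPS (edgeR FDR = 2.8e-07). Against LPS it was -0.87 ± 0.20 with LPS + (+)-JQ1 (edgeR FDR = 0.002; not called without mouse 3) and -1.08 ± 0.20 with LPS + IL-10 (edgeR FDR = 3.9e-05; called under every alternative).

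A second Ly96 peak, Ly96_p14 in an intron 7.6 kb downstream of the start, was lower with LPS + IL-10 than with LPS. It was at 5.15, 4.40 and 3.89 CPM unstimulated, 8.64, 7.09 and 7.23 CPM with LPS alone, 9.06, 6.11 and 5.66 CPM with LPS + (+)-JQ1, and 3.66, 4.40 and 3.86 CPM with LPS + IL-10. The LPS + IL-10 libraries lay below the LPS libraries, at 3.66 to 4.40 CPM against 3.89 to 5.15 CPM unstimulated, while the LPS + (+)-JQ1 libraries overlapped the LPS libraries. The log2 fold-changes of Ly96_p14 were 0.78 ± 0.18 with LPS, -0.95 ± 0.18 for LPS + IL-10 against LPS (edgeR FDR = 6.9e-05) and -0.17 ± 0.18 for LPS + (+)-JQ1 against LPS (edgeR FDR = 0.69). The start site peak Ly96_p11 did not pass with LPS (0.14 ± 0.14) and was higher with (+)-JQ1 alone (0.76 ± 0.14, edgeR FDR = 1.8e-05), a call that was lost under total-count scaling and under loess offsets. The other start site peak, Ly96_p10, held 24 to 65 counts and was called in no comparison.

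**Figure D2:**
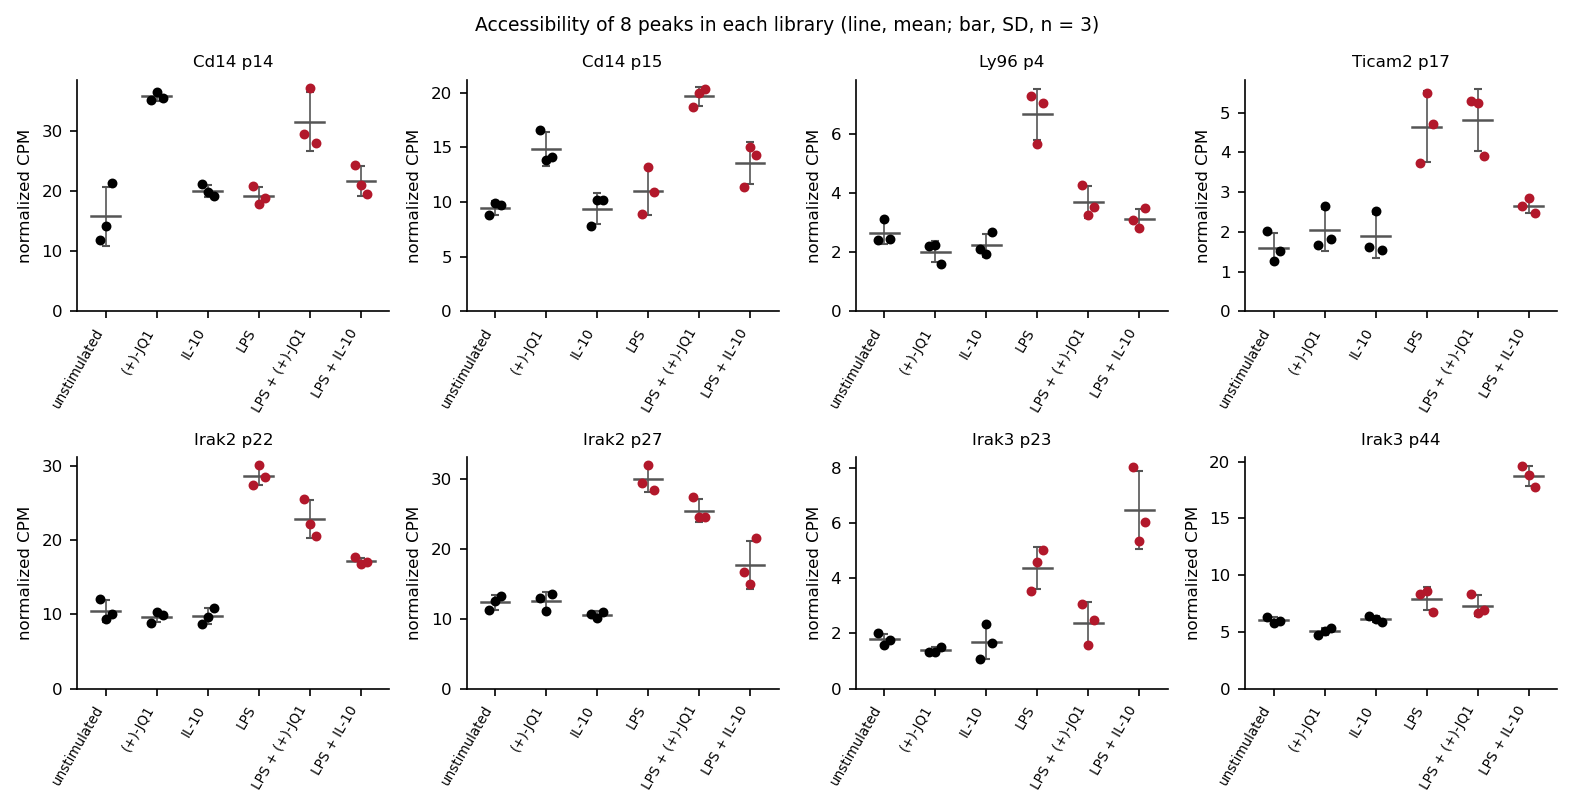
Normalized CPM of 8 peaks in each of the 18 libraries; each point is 1 library, the horizontal line the group mean and the bar 1 SD (n = 3), with libraries without LPS in black and with LPS in red. Cd14_p14 and Cd14_p15 are highest in the groups with (+)-JQ1, Ly96_p4 in the LPS group, Irak2_p22 and Irak2_p27 fall from LPS to LPS + IL-10, and Irak3_p44 is highest in the 3 LPS + IL-10 libraries.

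Myd88 encodes the adaptor shared by most Toll-like receptors and the IL-1 receptor. Of its 17 peaks, 1 was higher and 1 lower with LPS by edgeR. Its start site peak, Myd88_p9, also covers a start site of Acaa1a, so the 2 genes cannot be separated there. It was at 36.9, 43.8 and 57.3 CPM unstimulated, 70.5, 63.0 and 61.3 CPM with LPS, and 69.9, 84.5 and 72.5 CPM with (+)-JQ1. The treated libraries were above the unstimulated ones, with log2 fold-changes of 0.50 ± 0.14 with LPS, just under the call threshold, and 0.71 ± 0.14 with (+)-JQ1 (edgeR FDR = 4.0e-05). The (+)-JQ1 call of Myd88_p9 was lost without mouse 2 and under total counts, and its value was -0.05 under loess offsets.

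Myd88_p11, a distal peak 12.9 kb from the Myd88 start on its downstream side, was higher with IL-10. It was at 3.88, 3.57 and 3.23 CPM unstimulated and 6.44, 8.36 and 7.33 CPM with IL-10. It was at 3.08, 4.15 and 3.4 CPM with LPS, against 6.35, 6.14 and 4.36 CPM with LPS + IL-10. The IL-10 libraries lay above their comparison group both without and with LPS. The log2 fold-changes were 1.05 ± 0.19 (edgeR FDR = 7.8e-05, called under every alternative) and 0.66 ± 0.20 (edgeR FDR = 0.017, lost without mouse 1 or mouse 2), and LPS against unstimulated gave 0.00 ± 0.21. Myd88_p16 was lower with LPS (-1.25 ± 0.46, edgeR FDR = 0.034) but held only 5 to 25 counts. Its call was lost when any 1 of the 3 mice was left out and under loess offsets.

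Tirap encodes the adaptor that bridges TLR4 to MyD88 at the plasma membrane. Of its 23 peaks, 2 were higher with LPS, 3 were higher and 1 lower with (+)-JQ1, and 1 was lower with LPS + (+)-JQ1 than with LPS. The peak at the 3' end of the gene, Tirap_p13, was at 6.83, 3.02 and 4.99 CPM unstimulated, 8.87, 10.3 and 7.53 CPM with LPS, and 7.68, 6.22 and 4.07 CPM with LPS + (+)-JQ1. The LPS and LPS + (+)-JQ1 libraries overlapped at 7.53 and 7.68 CPM. The log2 fold-change with LPS was 0.87 ± 0.19 (edgeR FDR = 0.00026, not called without mouse 2), and that of LPS + (+)-JQ1 against LPS was -0.61 ± 0.19 (edgeR FDR = 0.033), a call that DESeq2 did not make for Tirap_p13 and that was lost without mouse 2 or mouse 3. The start site peak Tirap_p9 was higher with (+)-JQ1 (0.70 ± 0.14, lost under total counts and loess offsets, down to 0.25) and not called with LPS (0.37 ± 0.14), and Tirap_p8, also over a start site, was called in no comparison.

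Ticam1 encodes TRIF, the adaptor of the interferon arm. Of its 22 peaks, 5 were higher with LPS, 3 with (+)-JQ1 and 2 with IL-10. Its start site peak, Ticam1_p14, was at 25.8, 28.7 and 32.1 CPM unstimulated, 49.4, 43.3 and 42.5 CPM with LPS, 49.6, 60 and 51.5 CPM with (+)-JQ1, and 40.9, 47.4 and 46.3 CPM with IL-10. Every treated library stood above every unstimulated library. The log2 fold-changes of Ticam1_p14 were 0.64 ± 0.14, 0.89 ± 0.14 and 0.64 ± 0.14 (edgeR FDRs 0.00011, 5.6e-07 and 0.00072), and all 3 calls were lost under loess offsets. Under total counts the LPS and IL-10 calls were lost as well, and the IL-10 call also without mouse 2. After LPS the group means were 45.1 ± 3.77 CPM with LPS alone, 51.5 ± 3.56 CPM with (+)-JQ1 and 34.1 ± 5.15 CPM with IL-10 (SD, n = 3). The LPS + IL-10 value was -0.40 ± 0.13 against LPS (edgeR FDR = 0.037), inside the threshold of 0.5. The largest LPS difference at this gene was at Ticam1_p4, 21.9 kb upstream (1.09 ± 0.33, edgeR FDR = 0.0096), with 9 to 48 counts per library, and was not called without mouse 1 or mouse 3 or under total counts.

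Ticam2 encodes TRAM, which brings TRIF to TLR4 in the endosome. Of its 20 peaks, 5 were higher with LPS and 2 were lower with LPS + IL-10 than with LPS. The distal peak Ticam2_p17, 25.4 kb from the start on the downstream side, was at 2.01, 1.26 and 1.53 CPM unstimulated and 3.72, 5.49 and 4.72 CPM with LPS. It was at 5.30, 5.24 and 3.92 CPM with LPS + (+)-JQ1 and 2.64, 2.84 and 2.48 CPM with LPS + IL-10. The LPS + IL-10 libraries lay between the unstimulated and LPS libraries without touching either, and the LPS + (+)-JQ1 libraries overlapped those of LPS. The log2 fold-change of Ticam2_p17 was 1.54 ± 0.25 with LPS (edgeR FDR = 2.6e-07, called under every alternative) and -0.81 ± 0.22 for LPS + IL-10 against LPS (edgeR FDR = 0.0097, lost without mouse 2 or mouse 3).

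Another Ticam2 peak, Ticam2_p14, gave -0.14 ± 0.21 with LPS and was lower in 2 other comparisons. It was at 5.22, 3.68 and 5.26 CPM unstimulated and 2.56, 1.61 and 2.56 CPM with (+)-JQ1. It was at 4.13, 4.99 and 3.64 CPM with LPS and 2.18, 2.14 and 2.34 CPM with LPS + IL-10. The groups compared did not overlap. The log2 fold-changes were -1.05 ± 0.23 with (+)-JQ1 (edgeR FDR = 0.00026) and -0.94 ± 0.22 for LPS + IL-10 against LPS (edgeR FDR = 0.0015, lost without mouse 2). The start site peak Ticam2_p10 was higher with LPS (0.56 ± 0.14) and with (+)-JQ1 (0.55 ± 0.14), but both calls were lost without mouse 1 or mouse 2 and under total counts and loess offsets, with a (+)-JQ1 value of -0.06 under the latter.

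Irak4 had LPS differences in both directions. IRAK4 is the kinase that binds MyD88 first and phosphorylates IRAK1. Of its 28 peaks, 2 were higher and 3 lower with LPS, and these 3, all within the gene, were all but 1 of the 4 member peaks lower with LPS. Irak4_p12, in an intron, was at 2.61, 2.20 and 2.74 CPM unstimulated and 0.597, 1.5 and 0.717 CPM with LPS. The groups did not overlap, and the log2 fold-change was -1.41 ± 0.31 (edgeR FDR = 0.00018, called under every alternative). The LPS + IL-10 libraries of Irak4_p12, at 1.57, 1.97 and 1.29 CPM, overlapped those of LPS (0.76 ± 0.32, edgeR FDR = 0.12).

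Irak4_p24, 48.3 kb from the start on the downstream side, was higher with either treatment alone and with LPS + IL-10. It was at 8.70, 10.9 and 15.2 CPM unstimulated, 18.5, 19.3 and 19.1 CPM with (+)-JQ1, 19, 20.4 and 18.7 CPM with IL-10, 8.55, 11.7 and 9.38 CPM with LPS, and 14.4, 18.7 and 15.2 CPM with LPS + IL-10. The LPS libraries overlapped the unstimulated ones, and each treated group lay above its comparison group. The log2 fold-changes of Irak4_p24 were 0.70 ± 0.15 with (+)-JQ1, 0.73 ± 0.15 with IL-10 and 0.70 ± 0.15 for LPS + IL-10 against LPS (edgeR FDRs 0.00019, 0.00029 and 0.00036), the last of which was called under every alternative. The (+)-JQ1 and IL-10 calls were both lost under loess offsets and without mouse 2, and the (+)-JQ1 call also under total counts. The start site peak Irak4_p3, shared with Pus7l, was higher with (+)-JQ1 (0.80 ± 0.14) and with IL-10 (0.51 ± 0.14) and not called with LPS (0.38 ± 0.14). Under loess offsets and without mouse 2 both calls of Irak4_p3 were lost, and that with IL-10 also under total counts, in a fit of only the groups compared and without mouse 1. Irak4_p22 was higher in the 3 comparisons with the unstimulated group (0.68 ± 0.23, 0.70 ± 0.24 and 0.80 ± 0.23), with 26 to 100 counts per library, and each of these calls was lost without mouse 1 or mouse 2 and under total counts.

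Irak1 lies on the X chromosome and encodes the kinase that passes the signal from IRAK4 to TRAF6. Of its 15 peaks, 4 were higher with LPS. Its start site peak, Irak1_p8, was at 11.5, 12.2 and 15 CPM unstimulated and 20.1, 18.2 and 18.7 CPM with LPS, without overlap (0.56 ± 0.14, edgeR FDR = 0.0012). Irak1_p7, over an upstream start site, was 0.58 ± 0.20 higher with LPS (edgeR FDR = 0.022), and the calls of Irak1_p7 and Irak1_p8 were both lost without mouse 1 or mouse 2 and under total counts, that of Irak1_p8 also under loess offsets. The upstream peak Irak1_p4 was at 0.803, 1.21 and 0.932 CPM unstimulated, 1.88, 1.85 and 2.39 CPM with LPS, and 0.768, 0.764 and 1.28 CPM with LPS + (+)-JQ1. The LPS libraries stood above both other groups, and the log2 fold-changes were 1.03 ± 0.33 (edgeR FDR = 0.014) and -1.06 ± 0.33 (edgeR FDR = 0.035). These values of Irak1_p4 rest on 9 to 41 counts per library. The first call was lost without mouse 1 or mouse 3 and under total counts, and the second without any 1 mouse.

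At the downstream side of Irak1, Irak1_p14 was higher with (+)-JQ1 whether or not LPS was given. It was at 2.54, 2.53 and 3.23 CPM unstimulated and 4.89, 5.32 and 5.80 CPM with (+)-JQ1. It was at 4.00, 2.95 and 3.11 CPM with LPS, against 5.99, 5.13 and 5.39 CPM with LPS + (+)-JQ1. Neither pair of groups overlapped, and the log2 fold-changes were 0.94 ± 0.21 (edgeR FDR = 0.00038, called under every alternative) and 0.70 ± 0.20 (edgeR FDR = 0.017, lost without mouse 2 or mouse 3). Irak1_p13 was higher with IL-10 alone (1.05 ± 0.26, edgeR FDR = 0.0035, lost without mouse 1 or mouse 2). Irak1_p5 was higher with LPS (1.60 ± 0.45, edgeR FDR = 0.0045) on 4 to 28 counts per library, and Irak1_p9, over a further start site, was called in no comparison.

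Irak2 had the most peaks higher with LPS. IRAK2 is the kinase that sustains the late phase of Toll-like receptor signalling. Of its 30 peaks, 20 were higher with LPS and 0 lower by edgeR, 29 of 30 had a positive log2 fold-change, and the median was 0.83. The 20 peaks ran from 0.50 to 1.71, with 16 of them within the gene, and each was higher with LPS in all 3 mice. Total-count scaling left 16 of these 20 peaks, loess offsets 15, and leaving out 1 mouse at least 17. The 5 peaks over annotated start sites of Irak2 transcripts were all among the 20. With (+)-JQ1 alone, 9 Irak2 peaks were higher, and 7 of them were among the 20. They included the start site peaks Irak2_p8 (0.65), Irak2_p24 (0.54) and Irak2_p25 (0.74). These 3 calls were lost under total counts, under loess offsets and without mouse 2. With LPS, Irak2_p24 was at 0.55, also lost under both scalings and without mouse 1 or mouse 2, and Irak2_p25 at 0.93. The peak at the gene start, Irak2_p8, was at 40.2, 43.0 and 46.6 CPM unstimulated and 89.5, 81.3 and 79.7 CPM with LPS (0.95 ± 0.13, edgeR FDR = 3.8e-09). Under loess offsets it was 0.43 and not called.

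Irak2_p15, in an intron 22.4 kb from the start, had the smallest FDR of the member peaks (log2 fold-change 1.5 with LPS, edgeR FDR = 7.9e-16). Irak2_p22, which covers coding exons 47.2 kb from the start, was next. Irak2_p22 was at 12.1, 9.34 and 10.0 CPM unstimulated, 27.5, 30.1 and 28.5 CPM with LPS alone, 25.6, 22.2 and 20.6 CPM with LPS + (+)-JQ1, and 17.7, 16.8 and 17 CPM with LPS + IL-10. The 4 groups were each apart from the others. The log2 fold-change of Irak2_p22 was 1.46 ± 0.14 with LPS (edgeR FDR = 1.5e-15) and -0.74 ± 0.13 for LPS + IL-10 against LPS (edgeR FDR = 1.8e-05), both called under every alternative. LPS + (+)-JQ1 against LPS gave -0.34 ± 0.13 (edgeR FDR = 0.13). The largest LPS differences were at Irak2_p9 (1.71 ± 0.31, on 12 to 80 counts) and Irak2_p13 (1.69 ± 0.24), both in introns. Irak2_p15 was chosen for mention after its value was seen.

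With LPS + IL-10, 7 of the 30 Irak2 peaks were lower than with LPS (log2 fold-changes -0.91 to -0.52), and 6 of the 7 were among the 20 higher with LPS. Both comparisons use the same LPS libraries, which favours such an overlap. The 7 were Irak2_p13, Irak2_p14, Irak2_p17, Irak2_p22, Irak2_p27, Irak2_p28 and Irak2_p29, the last 3 beyond the 3' end of the gene, where Irak2_p28 and Irak2_p29 also cover start sites of Tatdn2. At Irak2_p14, printed above, the values were 2.34, 3.24 and 4.22 CPM unstimulated, 9.33, 6.74 and 10.3 CPM with LPS, and 4.93, 5.04 and 4.04 CPM with LPS + IL-10. LPS and LPS + IL-10 did not overlap, and the log2 fold-changes of Irak2_p14 were 1.41 ± 0.20 and -0.91 ± 0.19 (edgeR FDRs 8.4e-09 and 0.00022), the second lost without mouse 3. At Irak2_p27 they were 1.28 ± 0.14 and -0.76 ± 0.14 (edgeR FDRs 5.3e-13 and 1.5e-05), the second lost without mouse 2. Without mouse 2 the count of 7 fell to 2, without LPS + IL-10 replicate 3 to 4, and total counts and loess offsets left 6. The fibroblast and B cell marker sums given above also lay lower with LPS + IL-10 than with LPS, without overlap. Gene by gene, Pax5 alone was apart (9.91 to 11.9 against 12.3 to 14.3 CPM), and Col1a1, Pdgfra and Cd79a overlapped.

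With LPS + (+)-JQ1, the 20 Irak2 peaks had log2 fold-changes of -0.38 to 0.24 against LPS, with a median of 0.07, and edgeR and DESeq2 called 0 Irak2 peaks lower. The single Irak2 peak called in that comparison was Irak2_p30, which covers a start site of Ghrl 81.9 kb from the Irak2 start. It was at 24.5, 22.9 and 22.8 CPM with LPS, against 34, 31.2 and 35.3 CPM with LPS + (+)-JQ1 (0.52 ± 0.13, edgeR FDR = 0.0061, lost without mouse 2 or mouse 3 and under loess offsets). Without LPS, (+)-JQ1 gave -0.29 ± 0.14 at Irak2_p30 (edgeR FDR = 0.17).

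**Figure D3:**
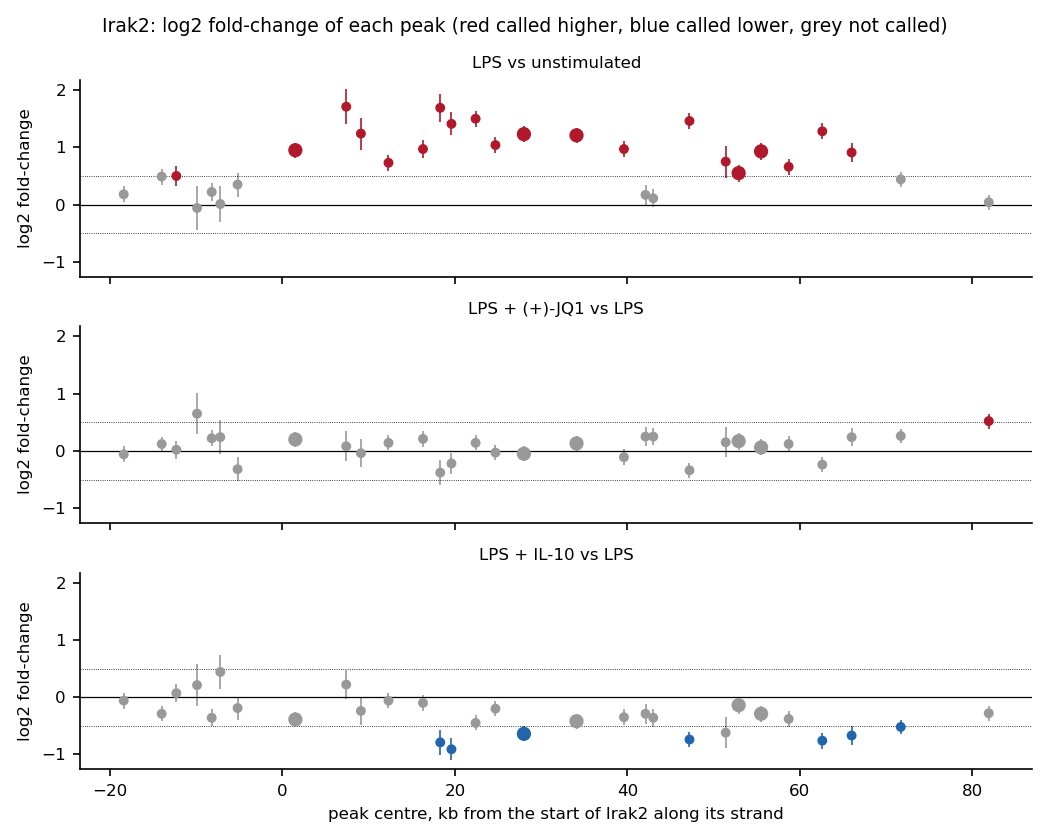
Log2 fold-change of the 30 Irak2 peaks (y axis; bar, SE) against the distance of the peak centre from the gene start in kb along the strand, in 3 comparisons; dotted lines mark the threshold of 0.5, red and blue points are called higher and lower, and larger points cover an annotated Irak2 start site. The red points in the first panel run from 12.3 kb upstream of the start to 66.0 kb downstream, and 7 blue points stand in the last panel.

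Irak3, the inhibitor, was the gene with the most peaks higher with LPS + IL-10 than with LPS. Of its 48 peaks, 18 were higher and 0 lower by edgeR, and the median over the 48 was 0.55, against -0.01 over all tested peaks. The 18 ran from 0.53 to 1.72, 17 of them were distal, 14 lay within the gene, and 17 were higher in all 3 mice. DESeq2 called 14 of the 18, loess offsets 17 and total-count scaling all 18. Without mouse 1 the number was 7, without mouse 2 it was 11, and without LPS + IL-10 replicate 1 it was 9. Against LPS, the same 18 peaks had a median of -0.13 with LPS + (+)-JQ1, and 0 were called there by edgeR. IL-10 without LPS called 0 of the 18 by edgeR, with a median of -0.02. The neutrophil marker sum lay higher with IL-10 than in the comparison group both with LPS (18.1 to 20.8 against 10.1 to 11.8 CPM) and without it (17.3 to 19.3 against 9.30 to 16.3 CPM). With LPS alone, 4 of the 18 were higher.

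Irak3_p44, downstream of the gene and printed above, had the smallest FDR. It was at 6.29, 5.77 and 5.97 CPM unstimulated, 6.39, 6.13 and 5.87 CPM with IL-10, 8.36, 8.64 and 6.75 CPM with LPS, and 8.37, 6.66 and 6.90 CPM with LPS + (+)-JQ1. With LPS + IL-10 it was at 19.6, 18.8 and 17.8 CPM, so that these 3 libraries held more than 2 times the signal of any other library. The log2 fold-change of Irak3_p44 against LPS was 1.24 ± 0.15 (edgeR FDR = 1.1e-10), and the interaction of LPS and IL-10 was 1.21 ± 0.22 (edgeR FDR = 8.3e-05). Both were called under every alternative, and LPS against unstimulated gave 0.40 ± 0.16 (edgeR FDR = 0.052).

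The largest difference was at Irak3_p18, in an intron 16.8 kb from the start, on 7 to 52 counts per library. It was at 0.535, 0.934 and 0.658 CPM unstimulated, 0.541, 0.535 and 0.517 CPM with IL-10, 0.597, 0.799 and 0.836 CPM with LPS, and 2.54, 2.43 and 2.39 CPM with LPS + IL-10. No other library reached the LPS + IL-10 values. Against LPS the log2 fold-change of Irak3_p18 was 1.72 ± 0.35 (edgeR FDR = 0.00013), called under every alternative. The neighbouring Irak3_p17, chosen after its value was seen, gave 1.26 ± 0.27 in that comparison (edgeR FDR = 0.00034).

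The peak at the gene start was not called. Irak3_p12, which also covers a start site of Tmbim4, was at 22.8, 21.6 and 22.6 CPM with LPS and 23.2, 23.9 and 19.5 CPM with LPS + IL-10, with overlapping groups (log2 fold-change -0.01 ± 0.14). It was higher with LPS than unstimulated (0.54 ± 0.14, edgeR FDR = 0.0021), a call lost without mouse 1 and under total counts and loess offsets, down to 0.24. Of the other peaks over annotated Irak3 starts, Irak3_p26 was higher with LPS + IL-10 (0.80 ± 0.25), Irak3_p28 with LPS (1.05 ± 0.38, on 2 to 56 counts), both lost without any 1 mouse and the latter also under total counts, and Irak3_p27 was called in no comparison.

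With LPS alone 13 of the 48 Irak3 peaks were higher, by 0.54 to 1.29. The count was 5 under total-count scaling and 7 without mouse 2. The largest of them, Irak3_p23, lies over a coding exon. It was at 2.01, 1.59 and 1.75 CPM unstimulated, 3.54, 4.59 and 5.02 CPM with LPS alone, 3.07, 1.58 and 2.48 CPM with LPS + (+)-JQ1, and 8.03, 5.33 and 6.02 CPM with LPS + IL-10. The LPS libraries lay above those of LPS + (+)-JQ1 and below those of LPS + IL-10. The log2 fold-changes of Irak3_p23 were 1.29 ± 0.25 with LPS (edgeR FDR = 1.7e-05), -0.89 ± 0.23 for LPS + (+)-JQ1 (edgeR FDR = 0.0084, lost without mouse 2 or mouse 3) and 0.57 ± 0.21 for LPS + IL-10 (edgeR FDR = 0.071). The other Irak3 peak lower with LPS + (+)-JQ1 was Irak3_p46 (-0.57 ± 0.15, edgeR FDR = 0.0089, lost without mouse 2), which was 0.71 ± 0.15 higher with LPS, though not called under total counts.

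**Figure D4:**
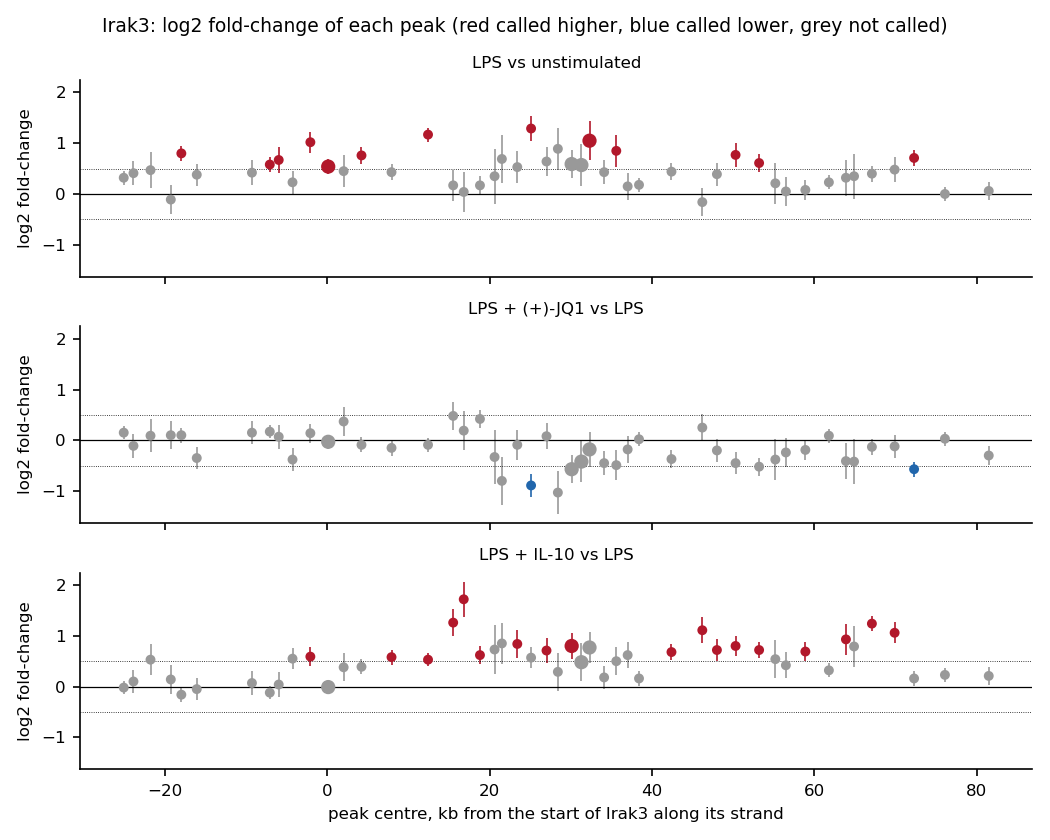
Log2 fold-change of the 48 Irak3 peaks (y axis; bar, SE) against the distance of the peak centre from the gene start in kb along the strand, in 3 comparisons; dotted lines mark the threshold of 0.5, red and blue points are called higher and lower, and larger points cover an annotated Irak3 start site. In the last panel 18 red points lie between 2.1 kb upstream and 69.9 kb downstream of the start, and the start site peak is at -0.01.

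Peaks over the members' own start sites were often higher with (+)-JQ1, as were promoter peaks over the whole set. Of 22 own start site peaks, 12 were higher with (+)-JQ1 and 11 with LPS. Over all peaks, 22.9% of the promoter class and 4.34% of the distal class were higher with (+)-JQ1, and 14.3% and 11.1% with LPS. Among the members, 28 of 66 promoter peaks and 16 of 178 distal peaks were higher. These counts depend on the scaling. With library totals in place of TMM the 44 member peaks higher with (+)-JQ1 became 12, with 21 lower, and the median over all peaks moved from -0.09 to -0.37. Over all peaks the 15247 higher and 6125 lower became 3828 and 27370. With loess offsets the 44 became 8, and the 15247 became 2725. The counts with LPS fell from 58 to 29 under total counts and to 49 under loess offsets, and those with IL-10 from 17 to 6 under either. The comparisons within LPS-treated cells moved less, with 23 higher and 11 lower for LPS + IL-10 under total counts.

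**Figure D5:**
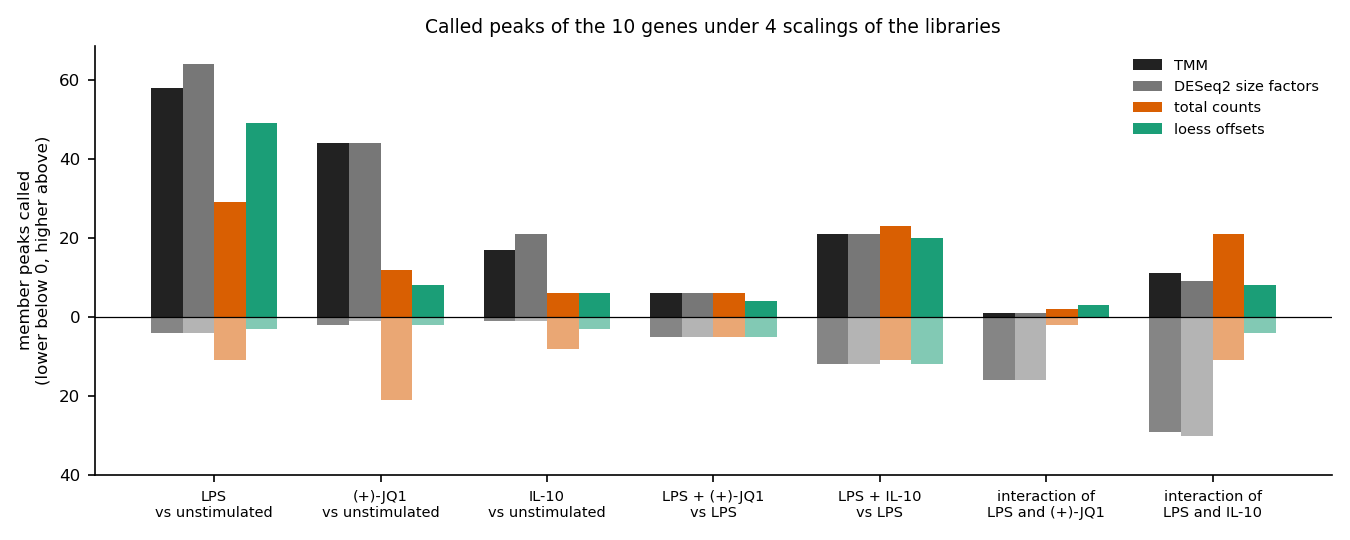
Number of member peaks called in 7 comparisons (y axis; lower below 0 in the paler shade, higher above) under 4 scalings of the libraries. In counts of peaks, the bars of (+)-JQ1 against unstimulated, LPS against unstimulated and the IL-10 interaction differ most between scalings. Those of both combined treatments against LPS differ least.

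The interaction tests whether the LPS difference itself changed with the treatment. For (+)-JQ1, 1 member peak was called with a positive and 16 with a negative interaction, against 0.649% and 3.19% of all peaks. For IL-10, 11 were positive and 29 negative, against 2.01% and 5.90%. Of the 11, 10 belonged to Irak3. All 11 were distal, whereas 18 of the 29 were in the promoter class, where 16.9% of all promoter peaks were called negative. Under total counts the split was 2 positive and 2 negative for (+)-JQ1 and 21 positive and 11 negative for IL-10. Under loess offsets it was 3 and 0, and 8 and 4. Over all peaks, total counts gave 4674 positive and 1838 negative for (+)-JQ1, and 12207 and 5152 for IL-10. Without mouse 2 the member interactions called by edgeR fell from 17 to 0 and from 40 to 2, and without mouse 1 to 1 and 18. Negative interactions over all peaks fell without mouse 2 from 6202 to 87 for (+)-JQ1 and from 11454 to 1135 for IL-10. At Ticam1_p14 the IL-10 interaction was -1.04 ± 0.19 (edgeR FDR = 9.4e-05, lost under loess offsets).

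The signal was also summed over all peaks of a gene. Irak2 went from 361 ± 43.7 CPM unstimulated to 632 ± 20.8 CPM with LPS and stood at 678 ± 37.9 CPM with LPS + (+)-JQ1 and 487 ± 34.5 CPM with LPS + IL-10 (SD, n = 3). No LPS + IL-10 library reached the LPS libraries. Irak3 stood at 225 ± 19.8 CPM unstimulated, 312 ± 19.8 CPM with LPS, 302 ± 22.8 CPM with LPS + (+)-JQ1 and 402 ± 47.8 CPM with LPS + IL-10. Its lowest LPS + IL-10 library, at 356 CPM, was above its highest LPS library, at 329 CPM. The log2 ratio of LPS + IL-10 to LPS was -0.42 to -0.31 over the 3 mice for Irak2 and 0.28 to 0.52 for Irak3. At Cd14 the ratio of LPS + (+)-JQ1 to LPS was 0.31 to 0.34 over the 3 mice, with 323 ± 10.0 CPM against 259 ± 6.36 CPM. For the other 9 genes the LPS + (+)-JQ1 and LPS libraries overlapped. These sums are given as values without a test.

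Other genes of the pathway were counted in the same way. The list held 30 genes, among them Tlr4, Lbp, Traf6, Irf3, Nfkb1 and Tnfaip3, with 752 peaks. With LPS 201 were higher and 66 lower, 26.7% and 8.78% of the 752, against 11.7% and 10.2% of all peaks. With (+)-JQ1 these were 77 and 40 (10.2% and 5.32%, against 7.85% and 3.15%), and with IL-10 they were 52 and 21 (6.91% and 2.79%, against 5.16% and 3.50%). LPS + (+)-JQ1 against LPS gave 16 higher and 74 lower (2.13% and 9.84%, against 1.74% and 3.49%), and LPS + IL-10 against LPS gave 21 higher and 102 lower (2.79% and 13.6%, against 4.26% and 4.51%).

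Short sequence motifs were searched on both strands of each peak. They were AP-1 (TGACTCA), the CRE-type AP-1 site (TGACGTCA), PU.1 (GAGGAAGT), C/EBP (TTGCGCAA, TTGCACAA or TTGTGCAA), STAT (TTCCNGGAA), the interferon response element (GAAA repeated after a gap of 2 bases) and the kappaB consensus. Within the central 300 bases, AP-1 was found in 6.97% of the members and 8.56% of all peaks, the interferon response element in 4.92% and 4.40%, the kappaB consensus in 2.05% and 3.58%, and PU.1 in 2.87% and 4.58%. C/EBP was found in 0.410% and 1.2%, STAT in 1.23% and 0.960%, and the CRE-type site in 0 members and 0.338% of all peaks. Over whole peaks, of the 18 Irak3 peaks higher with LPS + IL-10, 7 held AP-1, 5 the interferon response element, 4 PU.1, 3 the STAT sequence, 2 the kappaB consensus, 1 the CRE-type site and 1 C/EBP. These were 38.9%, 27.8%, 22.2%, 16.7%, 11.1%, 5.56% and 5.56%, and of all 8275 peaks higher in that comparison 34.8%, 19.8%, 18.6%, 5.90%, 14.0%, 1.31% and 9.49% held them, in the same order. The 18 peaks had a median width of 1754 bases, against 1410.0 bases for the 8275. All 6 members higher with LPS + (+)-JQ1 than with LPS held AP-1, and of all 3378 peaks higher there 40.1% did. It was in the central 300 bases of 3 of the 6, and 4 of the 6 were at Cd14. The interferon response element was in 3 of the 6, against 21.7%, kappaB and PU.1 in 1 each, and the others in 0. Of the 5 members lower there 0 held AP-1, against 34.4% of all 6770 peaks lower. PU.1 was in 3 of the 5, against 16.5%, the interferon response element and kappaB in 1 each, and the others in 0. A match is a description of the sequence and not a bound site.

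AP-1 matches in some peaks that carried the results above are shown with 12 bases on each side, on the + strand of mm9 with the motif in capitals. Other matches there were PU.1 in Irak2_p14, an interferon response element in Irak1_p14, and PU.1 and interferon response elements in Irak3_p44. AP-1 also lay in Irak4_p12 and Myd88_p16, both lower with LPS. In Irak2_p14 an AP-1 sequence lay 187 bases from the peak centre, at chr6:113608278-113608308, outside the 300 bases printed. In Irak2_p27 an AP-1 sequence lay at chr6:113651212-113651242. In Irak1_p14, higher with (+)-JQ1, an AP-1 sequence lay at chrX:71244783-71244813. In Myd88_p11, higher with IL-10, one lay at chr9:119237204-119237234, and in Irak3_p44 one lay at chr10:119570681-119570711. Their positions relative to the peak centre were -444 bases in Myd88_p11 and -1409 bases in Irak3_p44.
Irak2_p14: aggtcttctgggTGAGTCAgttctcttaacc
Irak2_p27: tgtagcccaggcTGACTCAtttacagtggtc
Irak1_p14: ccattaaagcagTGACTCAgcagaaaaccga
Myd88_p11: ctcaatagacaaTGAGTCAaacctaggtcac
Irak3_p44: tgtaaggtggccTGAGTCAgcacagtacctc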

How the data were processed

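ATAC-seq reads of 18 libraries from Il10-/- BMDMs were processed by the authors with PEPATAC, Bowtie2 and MACS2 on mm9, and the authors deposited raw read counts per library over a union of peaks, with ChIPseeker classes. A further 6 columns could not be matched to samples and were not used. All other values were computed here from the deposited counts. Member peaks were assigned with GENCODE M1. edgeR 4.0.16 (R 4.3.3, limma 3.58.1) was fitted to all peaks and 6 groups with TMM scaling, after filterByExpr had dropped 54 of 194284 peaks, and quasi-likelihood tests gave Benjamini-Hochberg FDRs. A call needed an FDR under 0.05 and an absolute log2 fold-change above 0.5. The interaction is the LPS difference with a treatment minus that without it.

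Same-numbered libraries came from the same mouse, as the series describes them. After subtraction of each group's mean, libraries from one mouse correlated at a mean of 0.0057 (-0.0819 to 0.0644, 45 pairs), against -0.0029 for other pairs. Replicates 1 and 3 were sequenced on lanes 5 and 6, and replicate 2 on lane 5 for the 3 groups that received no LPS and on lane 6 for the others. The named calls that could be computed on both lanes, 98 of 98, had the same direction on each. These calls were chosen on the same libraries, so their direction was largely set by the choice. The split by lane therefore does not test for a lane effect.

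Named peaks were those over a member's own start sites (1000 bases before to 100 after), the largest called change of each member in each comparison, the 10 interactions with the smallest FDRs, and peaks higher with LPS and lower with a treatment. The members, lists and motifs were chosen with earlier results of these data known. The fit was tested on simulated data. Alternatives were DESeq2 1.42.0 and its size factors, library totals, loess offsets, no filter, a replicate block, lane as a term, only the groups compared, and leaving out each mouse or library. The number of reads limits precision at peaks with few counts. One marker and one sequence are not reported here.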

Additional observations from a re-analysis of the deposited data

Results flagged for a closer look

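The LPS difference changed with a treatment, by edgeR's interaction test, at 17 member peaks for (+)-JQ1 and at 40 for IL-10. A negative interaction means that the LPS log2 fold-change was lower with the treatment than without it, and it could change sign. For (+)-JQ1 the interaction was negative at Cd14_p11 (-0.86), Cd14_p16 (-0.69), Myd88_p13 (-0.82), Tirap_p5 (-0.68), Ticam1_p14 (-0.70), Irak4_p3 (-0.65) and Irak1_p8 (-0.65). It was also negative at Irak2_p16 (-0.63), Irak2_p25 (-0.68), Irak2_p26 (-0.70), Irak3_p5 (-0.80) and Irak3_p12 (-0.75), and positive at Irak2_p30 (0.80). Each of these peaks with a negative interaction was called higher with (+)-JQ1 alone. None of them was called lower with LPS + (+)-JQ1 than with LPS. Under loess offsets every one of these negative interactions was lost. Under total counts those of Cd14_p11 and Myd88_p13 were kept and the other negative ones lost.

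For IL-10 the co-receptor peaks with a negative interaction were Cd14_p5 (-0.83), Cd14_p11 (-0.91), Cd14_p16 (-0.62) and Ly96_p14 (-0.86). The adaptor peaks were Myd88_p9 (-0.92), Myd88_p13 (-0.91), Tirap_p5 (-0.87), Tirap_p9 (-0.62), Ticam1_p14 (-1.04) and Ticam2_p17 (-1.07). The kinase peaks were Irak4_p3 (-0.78), Irak1_p5 (-1.90), Irak1_p8 (-0.72), Irak2_p8 (-0.76), Irak2_p16 (-0.92), Irak2_p22 (-0.64), Irak2_p26 (-0.88) and Irak3_p5 (-0.99). The interaction was positive at Myd88_p16 (1.87), Irak3_p18 (2.15) and Irak3_p44 (1.21). Of these named interactions, that of Irak3_p44 was called under every alternative. Among the negative ones, loess offsets kept those of Irak1_p5, Irak2_p16 and Irak3_p5 and lost the others. Total counts lost those of Cd14_p16, Ly96_p14, Tirap_p9, Ticam2_p17, Irak1_p5, Irak1_p8, Irak2_p8 and Irak2_p22. The positive interaction of Myd88_p16 was also lost under loess offsets.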

How the results depend on the processing

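Of the 132 calls named, DESeq2 size factors and no filter kept all 132, DESeq2 128 of 129, the replicate block 129, lane as a term 130, only the groups compared 117, library totals 80 and loess offsets 65. Leaving out mouse 1, 2 or 3 kept 87, 53 and 106, and leaving out 1 library, an alternative chosen after seeing the data, kept 780 of 996. The replicate block lost the (+)-JQ1 interactions of Irak4_p3, Irak2_p16 and Irak2_p25. It gave 2 member peaks lower with IL-10 in place of 1.

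Library totals gave 29 peaks higher and 11 lower with LPS, 12 and 21 with (+)-JQ1, 6 and 8 with IL-10, and 4 interactions with (+)-JQ1. Loess offsets gave 8 higher with (+)-JQ1, 6 higher and 3 lower with IL-10, and 3 and 12 interactions. DESeq2, its size factors and only the groups compared each gave 1 lower with (+)-JQ1, and only the groups compared gave 7 interactions with (+)-JQ1. With no minimum fold-change 36 were higher with IL-10. The cause was not tested. The median of all peaks under library totals was -0.261 with LPS, -0.366 with (+)-JQ1 and -0.257 with IL-10. Under loess offsets Myd88_p9 (-0.05), Ticam2_p10 (-0.06) and Irak2_p8 (-0.17) with (+)-JQ1, Myd88_p13 (-0.01) and Irak2_p26 (0.00) with IL-10, and the IL-10 interaction of Irak2_p8 (0.05) no longer had their direction.

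Without 1 mouse the counts higher and lower ran from 38 to 66 and 1 to 3 with LPS, 17 to 46 and 1 to 2 with (+)-JQ1, 5 to 36 and 0 to 0 with IL-10, 2 to 4 and 1 to 8 for LPS + (+)-JQ1, and 9 to 15 and 5 to 14 for LPS + IL-10. Interactions ran from 0 to 26 and from 2 to 35. Without 1 library they ran from 46 to 68 and 2 to 4, 32 to 45 and 1 to 3, 6 to 43 and 0 to 2, 4 to 6 and 1 to 7, 11 to 19 and 8 to 15, 3 to 36 and 24 to 51.

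Under library totals the summed log2 ratio with LPS was 0.11 at Ly96, 0.07 at Tirap, 0.14 at Ticam2, -0.02 at Irak4, 0.58 at Irak2 and 0.24 at Irak3. For LPS + (+)-JQ1 it was 0.30 at Cd14 and 0.04 at Ticam1, and for LPS + IL-10 it was 0.08 at Cd14, -0.12 at Ticam1 and -0.31 at Irak2. Over whole peaks the motif shares of the members were 28.3% for AP-1, 2.05% for the CRE-type site, 17.2% for the interferon response element, 11.1% for the kappaB consensus, 12.3% for PU.1, 5.33% for C/EBP and 4.51% for STAT, since whole peaks are longer. The whole-peak shares among all peaks were 25.2%, 1.28%, 16.7%, 13.6%, 12.7%, 4.49% and 4.16%, in the same order.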
